A study of Triticum aestivum with 6 samples.

Results

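The genes described here are the 9 wheat genes that the authors' deposited DESeq2 table lists under the single word Glycosyltransferase. They are 9 of the 861 genes in that table, which holds only genes with an adjusted p-value (FDR) under 0.05. The genes were therefore selected on their own p-value in the comparison described below, and the values that follow describe them without testing them. Membership also required that the gene in the probe's name be the gene whose description was attached to it, and all genes with this description met that condition.

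The study profiled messenger RNA by sequencing in leaves of winter wheat (Triticum aestivum, breeding line SE15). In the ultrasound group, seeds had been exposed to 30 kHz at 70 W for 5 minutes, 4 cm from an ultrasound head, before they germinated. The control group came from seeds that were not sonicated. Both groups started from 100 seeds with 13.6% water, germinated at 20 °C in darkness and were sampled 7 days after germination, with 3 samples in each group. Both groups were of the same breeding line. Whether each sample was 1 seedling or a pool is not stated.

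The deposited values compare groups headed K1 and US1, and the headers do not say which of them is the numerator. Genes with a deposited log2 fold change above 0 are therefore called positive here, and those below 0 negative. The positive side would mean higher expression after ultrasound only if US1 was divided by K1. No value per sample was analysed here, so expression level, sequencing depth and the spread between samples are unknown, and n was at most 3 per group. In bulk tissue, fewer cells of a type and less RNA per cell cannot be told apart. The standard error (SE) given with each fold was derived from the authors' fold and p-value, on the assumption of a Wald test.

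Glycosyltransferases move a sugar from an activated donor, most often a nucleotide sugar, onto an acceptor. In plants the acceptors include hormones, flavonoids and other phenolics, lipids, proteins and the polysaccharides of the cell wall. Attaching a sugar commonly makes a small molecule more soluble and ready for storage in the vacuole, and it can switch a hormone to an inactive form. The deposited word is a class name, so neither the donor nor the acceptor of any of the 9 enzymes is known from these files. Each of the 9 genes carried a different protein database entry behind that word. Their sequences were not analysed here.

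Of the 9 glycosyltransferase genes in the authors' deposited table, 8 were positive and 1 was negative. The whole table held 441 positive and 420 negative genes, or 51.2% positive. Descriptions were unevenly spread over the 2 sides, since 155 of the 223 other described genes, or 69.5%, were positive. The FDR values imply 76618 tests, of which the 861 listed genes were 1.12%, the positive ones 0.576% and the negative ones 0.548%. Because being listed was the condition for membership, these shares say nothing about glycosyltransferases that passed or missed the threshold. The files describe only 232 of the 861 genes, so further glycosyltransferases may stand among the 629 genes without a description of their own. Glycosyltransferase was one of 2 descriptions held by 9 genes each, behind the chlorophyll a-b binding proteins with 37. The other was the ribulose bisphosphate carboxylase small chain. How many of all tested genes carry each description was not determined, so these counts do not give the share of any family that was listed.

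The largest unshrunk difference belonged to TraesCS4A02G481000 (chromosome 4A, 737139073 to 737141114, plus strand). Its log2 fold change in the authors' deposited table was 3.27 (SE 0.91), which is a 9.63-fold difference, at a DESeq2 adjusted p of 0.0368. TraesCS7A02G558600 (7A, 730764212 to 730765905, plus strand) followed with 3.06 (SE 0.83), a ratio of 8.32 and a DESeq2 adjusted p of 0.0302. These were the largest differences of the group and also its least precise, with the implied SE ranked 782 and 762 among the 861 genes from the smallest up.

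TraesCS3D02G326200 (3D, 438542807 to 438544535, plus strand) had a log2 fold change of 2.33 (SE 0.67) and a DESeq2 adjusted p of 0.0466. A further gene on 7A, TraesCS7A02G492800 (7A, 681733087 to 681735473, plus strand), had 2.21 (SE 0.55) and a DESeq2 adjusted p of 0.0122. TraesCS1D02G062800 (1D, 42759488 to 42764120, plus strand) stood at the median of the 9 genes, with a log2 fold change of 2.02 (SE 0.56), a ratio of 4.06 and an adjusted p of 0.0367 from DESeq2. All 5 of these genes had an unshrunk difference of at least 4-fold.

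The 3 smaller positive differences lay between 2-fold and 4-fold. TraesCS1A02G319300 (1A, 510352871 to 510354295, minus strand) had a log2 fold change of 1.79 (SE 0.51) and a DESeq2 adjusted p of 0.0449. For TraesCS5A02G543000 (5A, 698645748 to 698647567, minus strand) the values were 1.66 (SE 0.44) and a DESeq2 adjusted p of 0.0229. TraesCSU02G005100 (unplaced sequence, 9330357 to 9332173, minus strand) had the smallest difference, 1.19 (SE 0.28), a ratio of 2.28. It was also the most precise and had the lowest adjusted p of the 9, 0.00470 by DESeq2. Its SE ranked 31 among the 861 genes. A small difference passes the FDR threshold only with a small SE, and a large SE passes only with a large difference. The pairing of size and SE among the 9 genes therefore follows in part from their selection.

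TraesCS2B02G395000 (2B, 559909629 to 559911737, plus strand) was the only gene of the group on the negative side. Its log2 fold change was -1.61 (SE 0.47), a ratio of 3.05 towards the other group, with a DESeq2 adjusted p of 0.0494 in the authors' deposited table. This was the gene nearest to the threshold of 0.05 from inside. The highest FDR of any listed gene was 0.0499, and genes just outside the threshold were not analysed here. The one contrary direction in the group therefore rests on its weakest p-value, 5.55e-04, which ranked 856 of 861.

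**Figure D1:**
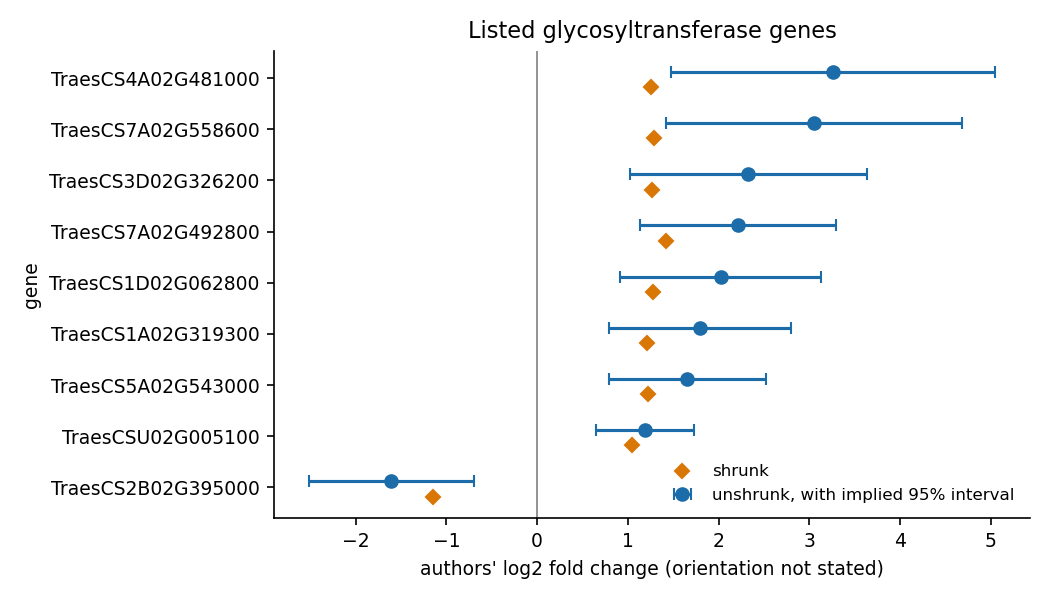
Authors' log2 fold change (horizontal axis, log2 units) of the 9 listed glycosyltransferase genes, ordered by size, with circles for the unshrunk value and its implied 95% interval and diamonds for the authors' shrunk value. The unshrunk values on the positive side run from 1.19 to 3.27, while the shrunk ones stay between 1.05 and 1.42, and TraesCS2B02G395000 alone lies left of 0.

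Neighbours in the order of the 8 positive genes were not resolved by the implied errors. Each of the 7 differences between neighbours in the order was smaller than the combined SE of the pair, the widest being 0.73 between TraesCS7A02G558600 and TraesCS3D02G326200 (95% interval -1.37 to 2.82). Sorting by size makes such gaps small, and of the other pairs only the first and last were compared. All 8 implied 95% intervals shared the range from 1.48 to 1.73. The first and last of the order, TraesCS4A02G481000 and TraesCSU02G005100, differed by 2.08 (95% interval 0.21 to 3.94). That pair was picked as the extremes of the order, and both genes were measured in the same libraries, so the interval, which treats them as independent, is only a guide.

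Shrinkage, which pulls imprecise folds towards 0, removed most of the differences in size within the group. The authors' shrunk log2 fold changes ran from 1.05 for TraesCSU02G005100 to 1.42 for TraesCS7A02G492800 on the positive side, and TraesCS2B02G395000 was at -1.15. TraesCS4A02G481000, first by unshrunk value, had a shrunk value of 1.26, which was 38.4% of the unshrunk one. For TraesCS7A02G558600 the shrunk value was 1.29, for TraesCS1D02G062800 it was 1.28 and for TraesCS3D02G326200 it was 1.27. TraesCS5A02G543000 and TraesCS1A02G319300 came to 1.22 and 1.21. On this scale the 9 genes had ratios between 2.06 and 2.67, and the median of the absolute shrunk values was 1.26, the same to this precision as for all 861 listed genes.

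The 9 genes sat in the weaker part of the authors' table by p-value. Their median rank was 691 of 861, and the best placed, TraesCSU02G005100, ranked 277. Of the 9 genes 1, or 11.1%, had an FDR under 0.01, against 360 of the 852 other listed genes, or 42.3%. Genes with an FDR under 0.01 made up 0.471% of all implied tests. The median absolute unshrunk log2 fold change was 2.02 for the 9 genes and 1.81 for the other 852, and the median implied SE was 0.55 against 0.43. Size, error and p-value are linked by the way the SE was derived, and these values all come from the contrast that chose the genes.

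**Figure D2:**
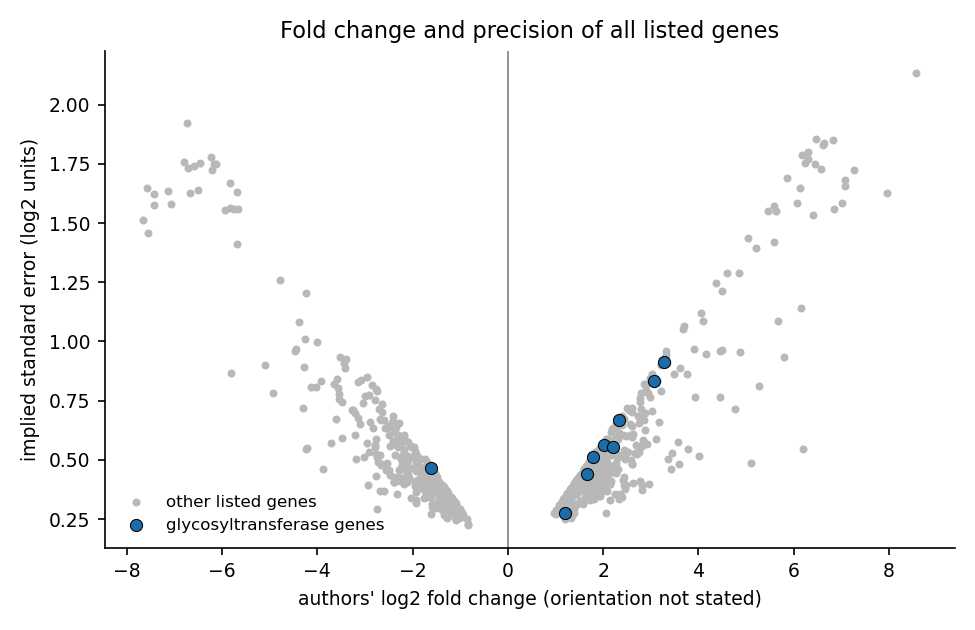
Implied SE (vertical axis, log2 units) against the authors' unshrunk log2 fold change (horizontal axis) for all 861 listed genes, with the 9 glycosyltransferase genes as large blue points and the other 852 in grey. Most blue points lie on the upper edge of the cloud, where the SE is large for the fold, and none lies among the genes with an absolute log2 fold change above 3.27.

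Other enzymes of sugar transfer and sugar supply were looked up by keywords over the descriptions. The list held 15 genes, of which the 9 glycosyltransferases were the majority. The remaining 6 genes divided into 1 positive and 5 negative, at a median of -1.33 on the authors' log2 scale and with absolute values from 1.20 to 1.95. They are all named here because they are few, after their values were seen. Of all 15 genes in the wider list 60.0% were positive, against 70.3% of the 232 described genes. That share pools the 9 glycosyltransferases, 88.9% positive, with the 6 others, 16.7% positive. Of the 223 described genes other than the 9 glycosyltransferases, 69.5% were positive. None of these differences was tested.

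The hexosyltransferases, named by a class word for enzymes that transfer a hexose sugar, were split. TraesCS4B02G187400 (4B, 407807408 to 407808508, minus strand) had a log2 fold change of 1.68 (SE 0.48) and a DESeq2 adjusted p of 0.0449. TraesCS5A02G235300 (5A, 451454753 to 451458817, minus strand) had -1.95 (SE 0.39) and a DESeq2 adjusted p of 3.87e-04, lower than that of any of the 9 glycosyltransferases. Both genes of xyloglucan endotransglucosylase/hydrolase, which cuts and rejoins the xyloglucan chains of the cell wall, were negative. TraesCS4A02G172600 had -1.38 (SE 0.29) and TraesCS7A02G426100 had -1.28 (SE 0.30). Trehalose 6-phosphate phosphatase removes the phosphate from the sugar signal trehalose 6-phosphate, and its 2 listed genes were negative too. TraesCS5A02G190000 had -1.45 (SE 0.41) and TraesCS5B02G193100 had -1.20 (SE 0.34). These last 2 kinds of enzyme were each represented by genes on one side only, but each by no more than 2 genes.

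**Figure D3:**
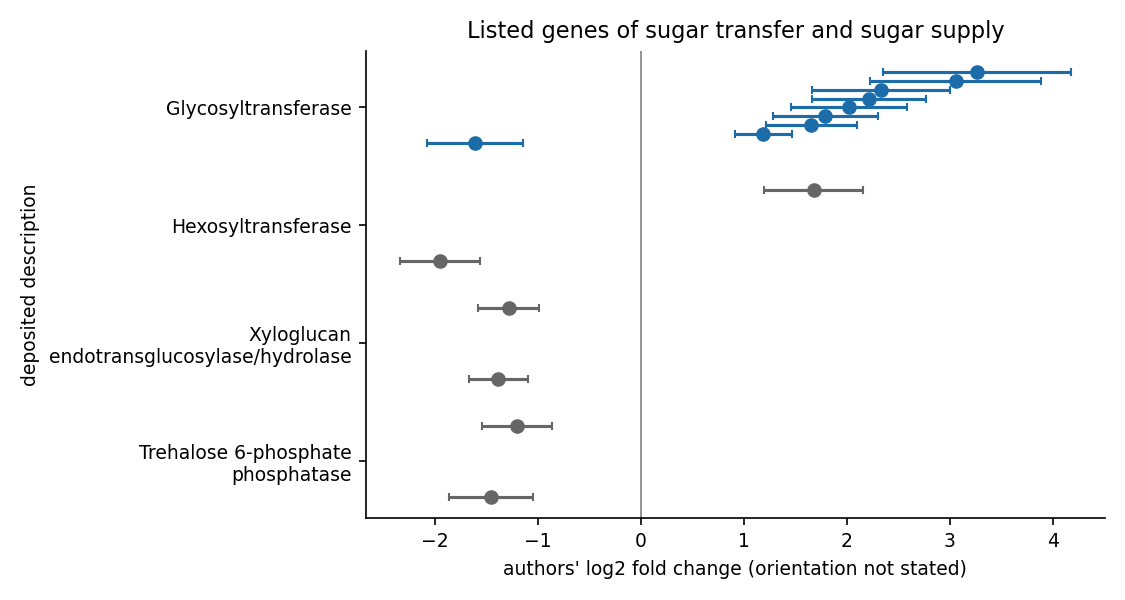
Authors' unshrunk log2 fold change (horizontal axis) of the 15 listed genes of sugar transfer and supply, grouped by deposited description (vertical axis), with bars of 1 implied SE and points spread vertically within a group for legibility. Of the genes called Glycosyltransferase, in blue, 8 lie right of 0, and of the 6 others, in grey, only the hexosyltransferase at 1.68 does.

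Enzymes that take sugars off again, such as glucosidases, amylases and invertases, gave 0 genes under a description of their own. An alpha-1,2-mannosidase description was attached to TraesCS3D02G309400, but it belonged to another gene at that position and was not counted. Among proteins that take part in the making or coupling of phenolic compounds, a class of frequent sugar acceptors, 3 genes were listed. Dirigent proteins, which steer the coupling of phenolic radicals, were positive, with TraesCS2A02G034400 at 2.08 (SE 0.43) and TraesCS5B02G172000 at 1.67 (SE 0.43). Phenylalanine ammonia-lyase, the entry enzyme of phenolic synthesis, was represented by TraesCS1B02G048100 at -7.14 (SE 1.64, shrunk -1.07). With 73.1% of listed genes lacking a description of their own, a count of 0 does not show that such genes were unaffected.

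Wheat carries 3 related genomes, A, B and D, and most genes exist as a copy on each. Of the 9 glycosyltransferase genes 5 lay on A, 1 on B and 2 on D, with 1 on unplaced sequence, while the 861 listed genes numbered 264, 278, 311 and 8 in the same order. The A genome thus held 55.6% of the group and 30.7% of the table, on counts too small to compare. The 8 placed genes fell on 7 chromosomes, and only 7A carried a pair, 49.0 Mb apart at their ends. The only chromosome group with members from different genomes was group 1, where TraesCS1A02G319300 and TraesCS1D02G062800 differ widely in position along their chromosomes. No table in the files pairs the copies of a gene across genomes, so it cannot be said whether a copy of any member was listed under another description. The labels do not say how reads shared between near-identical copies were counted. This is unknown for all 9 genes, the unplaced TraesCSU02G005100 included.

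The spans of the 9 probes ran from 1425 to 4633 bases, with a median of 1820, against a median of 1789 over all listed genes. The longest was that of TraesCS1D02G062800. No other listed probe overlapped any of the 9, and 6 of them were on the plus strand. The files annotate every probe as a gene and place none in an exon, intron or UTR. Probe names carry a suffix, which was E1 for 7 of the 9 genes and E2 for TraesCSU02G005100, while TraesCS4A02G481000 had a transcript prefix. The files do not explain these labels, and neither they nor the sample labels name a genome build.

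Along the chromosomes, 3 of the 8 placed glycosyltransferase genes were followed by at most 2 listed genes, against 7.62% of all 853 placed genes, a difference that was noticed in the data and not tested. Only listed genes after each gene entered these shares, so nearness to the start of a chromosome was left out. TraesCS7A02G558600 was the last of the 34 genes listed on 7A. TraesCS5A02G543000 was followed by 1 listed gene on 5A, of 65, and TraesCS4A02G481000 by 2 on 4A, of 35. TraesCS7A02G492800 was followed by 5 listed genes on 7A, whereas TraesCS3D02G326200 was near the middle of the 44 on 3D, with 22 before and 21 after. TraesCS1A02G319300 had 11 listed genes after it and TraesCS2B02G395000 had 10. TraesCS1D02G062800 stood towards the other end of 1D, with 7 listed genes before and 38 after. Chromosome lengths were not used here, so the distance to the physical end is not given.

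The listed gene nearest to each placed glycosyltransferase lay on the same side of the comparison in 7 of 8 cases. Over all 853 placed genes this share was 61.7%. The median distance to the nearest listed gene was 3.00 Mb for the 8 genes and 3.49 Mb over all placed genes. These figures come from the contrast that chose the genes and are given as a description. One neighbour stood within 1 Mb and 50 gene numbers, TraesCS3D02G326600, which has no description. It lay 62.8 kb from TraesCS3D02G326200 and had a log2 fold change of 1.19 (SE 0.34). Around the negative TraesCS2B02G395000, both listed genes within 10 Mb were negative as well, TraesCS2B02G395900 at -2.42 (SE 0.69) and TraesCS2B02G392100 at -1.38 (SE 0.33). The exception among nearest neighbours was the last listed gene before TraesCS7A02G558600, TraesCS7A02G529000 at -6.46 (SE 1.75), which was 21.6 Mb away. The neighbours on 2B and 7A lie beyond 1 Mb and were named after their values were seen.

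**Figure D4:**
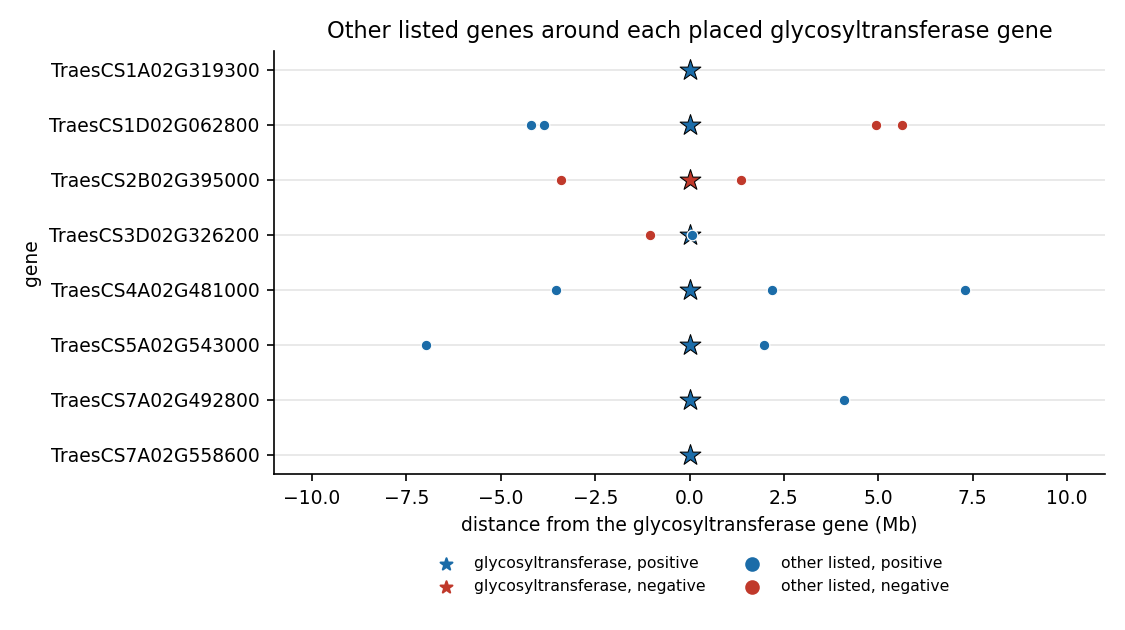
Other listed genes within 10 Mb of each of the 8 placed glycosyltransferase genes, with distance from the gene on the horizontal axis (Mb) and 1 row per gene; stars mark the glycosyltransferases, dots the other listed genes, blue the positive and red the negative side. The windows hold 14 other listed genes, 9 positive and 5 negative, and those around TraesCS1A02G319300 and TraesCS7A02G558600 hold none.

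None of the 9 glycosyltransferase genes, and no other gene with that word in its description, appeared in the authors' second deposited table. That table lists 52 genes with a Z-score of the difference, or 0.0433% of 120099 implied tests, and 18 of the 52 are also in the first table. Each of those 18 genes had opposite signs in the 2 tables, so a positive log2 fold change went with a negative Z-score. Neither header gives the direction of its difference, so this does not settle which group is higher. The wider list of sugar transfer and supply had 0 genes in it. No header names the test behind the Z-score, so an absence from that table was not read as a lack of difference.

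Keyword lists meant to mark cell types also matched genes in the same table. Chlorophyll a-b binding and small-chain carboxylase genes, taken as the leaf mesophyll list, numbered 46, every one of them positive, and their median was 2.43 on the authors' log2 scale. In the second deposited table the same keywords matched 26 genes, and 26 had a negative Z-score. Only 18 genes of any kind appear in both deposited tables, so these 26 are not all among the 46. Any that are shared belong to the 18 genes with opposite signs given above. The seed and endosperm list had 0 genes in the first table and 2 in the second, both with a negative score. Of the root list the second table held 3 genes, 3 of them negative. The phenolic list had 2 genes there, 2 of them negative, so every list with genes in it was wholly negative. The share of negative scores over all 52 genes was not determined, so these counts are not read as a trait of the markers. Keywords pick gene families, and whether the seed and root matches mark those tissues was not checked. In the first table the root list was 6 peroxidases and a metal-nicotianamine transporter whose description names transport to the endosperm. It had 3 positive genes and 4 negative ones, the negative ones all peroxidases. By unshrunk value the largest were the peroxidases TraesCS2A02G147700 at 3.69 (SE 1.07, shrunk 1.07) and TraesCS3D02G406900 at -6.71 (SE 1.73, shrunk -0.87), but by shrunk value each was the smallest on its side. Levels were not analysed, so the leaf label could not be checked against them. The 8 positive glycosyltransferase genes thus lay on the same side as the mesophyll list, and the part of tissue make-up in their values was not tested.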

How the data were processed

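Leaf mRNA was sequenced in 3 samples from sonicated and 3 from untreated seeds, grouped by their titles. Tools named without roles, per the submitters' processing notes, are STAR 2.7.10a, Trim Galore 0.6.7, FastQC 0.11.9 and, with no version, the authors' DESeq2. The authors' first deposited table gives a p-value, an adjusted p-value, a log2 fold change and a shrunk log2 fold change per probe, and their second deposited table a p-value and a score, the Z-score difference. No value per library was analysed, so the planned edgeR or limma test was not run, and depth and its precision are unknown. The design text calls the 3 samples of a group independent biological ones but does not say what was pooled in each.

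The implied SE was the absolute log2 fold change over the standard normal deviate of the two-sided p-value. The quotient of the unshrunk to shrunk ratio minus 1 over the squared SE, near constant under a normal prior, had quartiles of 1.82 and 1.85. Over the 9 genes this quotient ran from 1.82 to 1.97, beyond the upper quartile. The number of tests was the most frequent value of FDR times rank over p. It placed the last listed gene at rank 867, so 6 ranks were not analysed here. Both steps were run on simulated data that followed the same formulas with no rank missing. Such runs could not check the Wald assumption or the effect of the 6 missing ranks. All 9 genes are named, and other lists were keyword patterns, with at most the 2 largest per direction named unless stated. The genes and lists were chosen with earlier results of these data known. The RefSeq gene table (IWGSC CS RefSeq v2.1) matched 0 of the 9 identifiers and 0 of those of all 861 listed genes. Python 3.11.15, pandas 2.3.3 and scipy 1.17.1 were used.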

Additional observations from a re-analysis of the deposited data

How the results depend on the processing

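The split of 8 positive genes and 1 negative gene was the same when any description containing the word was accepted. It could not change when the probe's gene could differ from the described gene, since all genes with this description already met that condition. Nor could it change when overlapping probes were reduced to 1, since no other listed probe overlapped any of these genes. At an FDR under 0.01, 1 positive and 0 negative genes were left, and with absolute log2 values of 2 or more there were 5 positive and 0 negative genes. The median log2 fold change of 2.02 became 1.26 with the authors' shrunk values and 1.19 at an FDR under 0.01, where it rests on TraesCSU02G005100 alone. With overlapping probes reduced to 1 it stayed at 2.02, as it had to, because none overlapped these genes. A one-sided reading of the p-values moved the median implied SE to 0.58, against 0.55. No paired analysis was possible because the deposited columns carry no replicate and give only the authors' comparison, and leaving out a replicate was not run for the same reason. Depth, and the effect of 1 library on any of these genes, is unknown.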
